A study of Mus musculus with 6 samples.

Results

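The wall of brain vessels was followed through 33 genes chosen as markers of its mural cells, of 14824 genes with values in S1 cortex. They were chosen by name as genes known for these cells, at a time when earlier results of these data were known. Of them, 13 mark pericytes, 12 mark the contractile smooth muscle cells of arterioles, and 8 are used by both. All 33 had counts in every library, from as few as 3 for Cnn1, and 32 passed the filter on low counts. The gene left out by that filter was Cnn1.

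Bulk RNA-seq had been performed on primary somatosensory cortex of WT C57B6 mice at postnatal day 21, 90 minutes after the last stimulation. Mice that received daily whisker stimulation gave 3 WS libraries, and cortex labelled as having no treatment gave 3 NS libraries (no stimulation). The study's design takes the side of the cortex that received no stimulation as its control, but which libraries share an animal is not given, so the p-values measure only the spread between these libraries. RNA with an integrity number above 2 had been accepted, and the labels describe the tissue as a mix of neurons, astrocytes, endothelial cells, oligodendrocytes, pericytes and microglia.

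Pericytes are embedded in the basement membrane of capillaries and wrap the endothelial tube, which recruits them by releasing PDGF-B onto the receptor PDGFRβ. Vascular smooth muscle cells form the ring around arterioles and set vessel diameter through an actin and myosin apparatus driven by calcium. During growth of a vascular bed, new sprouts are first endothelial and are then covered by pericytes, so that markers of these cells are read as a measure of vessel coverage. In bulk tissue, fewer cells of a type and less RNA per cell cannot be told apart.

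The 6 libraries held 15660395 to 17276168 estimated counts over the listed genes, and the coefficient of variation between replicates was 10.1%. WS replicate 1 and WS replicate 3 stood farthest apart, with a chi-square per degree of freedom of 20.3 against 4.29 for the closest pair of libraries. Levels are given as CPM, a gene's counts as a share of its library scaled so that libraries of different depth can be compared, with the TMM factors of edgeR.

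Levels were first compared between genes, using CPM per kilobase of exon. Vtn, encoding the matrix protein vitronectin that pericytes secrete, was the highest at 39.7 ± 5.83 in NS (SD, n = 3). Tpm1, encoding a tropomyosin found in many cell types, followed at 28.9 ± 1.03, and Rgs5, a regulator of G-protein signalling enriched in pericytes, at 27.0 ± 2.41. The levels of Tpm1 and Rgs5 did not differ beyond their spread. Myl9 reached 10.8 ± 1.78, Mcam 7.89 ± 1.27 and Acta2 6.98 ± 0.957, and the levels of Mcam and Acta2 lay within their SD. Pdgfrb stood at 4.87 ± 0.274, next to Slc6a20a at 5.08 ± 0.574. At the other end, Des was at 0.472 ± 0.0613, Aoc3 at 0.302 ± 0.0281, Itga1 at 0.235 ± 0.0163 and Cnn1 at 0.106 ± 0.0342. The canonical genes of both cell types were therefore measured in this cortex, those of contraction over a range from Cnn1 to Tpm1.

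**Figure D1:**
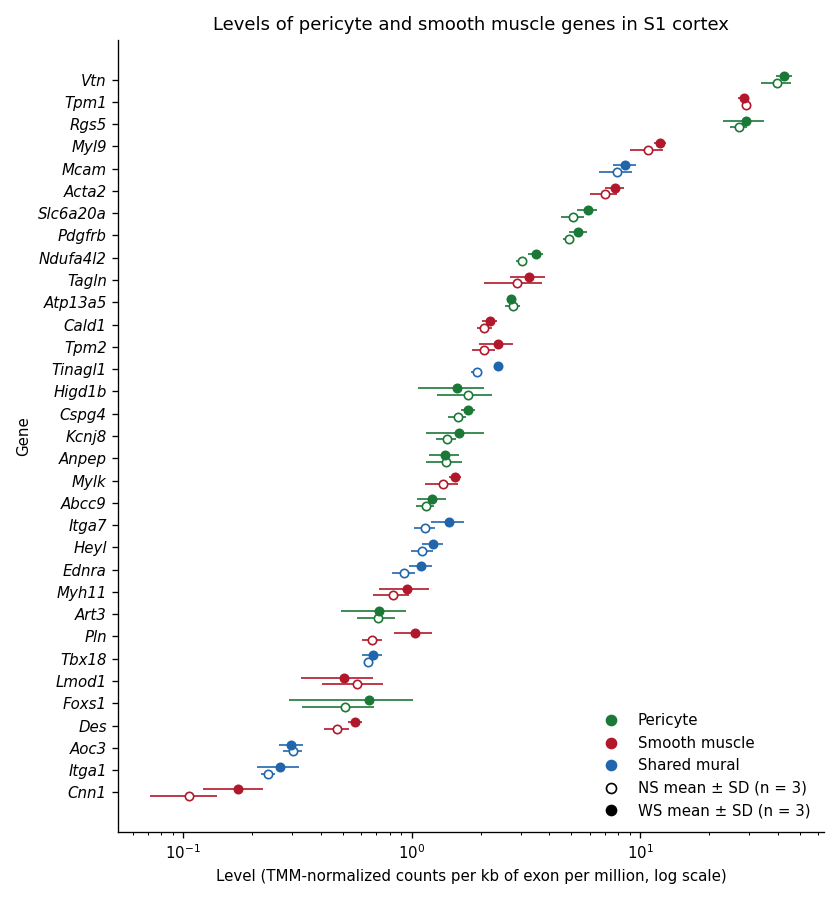
Level of each of the 33 genes (horizontal log axis, CPM per kilobase of exon) as the mean of 3 NS libraries (open circles) and 3 WS libraries (filled circles), with lines for the SD and colours for the 3 lists. Vtn, Tpm1 and Rgs5 lead and Cnn1 is lowest in both groups.

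Whether whisker stimulation altered the transcripts of mural cells was asked with edgeR's quasi-likelihood test across 13747 genes. None of the 32 tested members passed an adjusted p under 0.05 with a log2 fold change beyond 1 in either direction, and the same count of 0 was given by DESeq2. Of all genes tested, 0.0291% passed as higher in WS and 0.0% as lower with edgeR, and 0.0364% and 0.0% with DESeq2. The adjusted p was 0.9998 for every member (edgeR, Benjamini-Hochberg adjustment). At an unadjusted p under 0.05, 3 members were higher in WS, namely Pln, Tinagl1 and Itga7, and 0 were lower, where 0.866% and 0.327% of all genes were so. With DESeq2 that count of 3 was 0, where 0.495% of all genes were higher and 0.116% lower. Leaving out NS replicate 2, WS replicate 2 or WS replicate 3 reduced the count in edgeR from 3 to 1 each time. Without NS replicate 1 none of Pln, Tinagl1 and Itga7 was under 0.05 (edgeR, unadjusted p of 0.0507, 0.0681 and 0.126), and Mylk and Myl9 were. Without WS replicate 1 the count of 3 held Slc6a20a in place of Itga7.

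Most members had higher values in WS without passing the test, and the difference was not seen in every pair of libraries. The log2 fold change was above 0 in 26 of 32 members and in 53.0% of all genes tested, and its median was 0.158 over the members against 0.007 over all genes. It was above 0 in 10 of 13 pericyte genes (median 0.105), 9 of 11 smooth muscle genes (median 0.177) and 7 of 8 shared mural genes (median 0.164). The 95% interval spanned 0 in 29 of 32 members, and in 30 of 32 it lay within 1 log2 unit on either side of 0. Foxs1 and Pln were the exceptions, with upper bounds of 1.36 and 1.13. A difference of 2-fold in either direction was thus outside the interval of the remaining members, and the size of difference that could be resolved with 3 libraries a group varied from gene to gene.

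Libraries of the same replicate number were also compared pair by pair. The median difference over the members was 0.000 log2 units in pair 1, where 16 of 32 members were higher in WS. It was 0.106 in pair 2, with 22 members higher, and 0.173 in pair 3, with 25 members higher. WS was the higher in 3 of 3 pairs in 10 members (31.2%), namely Vtn, Ndufa4l2, Myh11, Mylk, Des, Tpm2, Pln, Mcam, Tinagl1 and Itga7, and in 9.82% of all genes. WS was the lower in 3 of 3 pairs in 2 members, Higd1b and Lmod1, and in 8.57% of all genes.

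**Figure D2:**
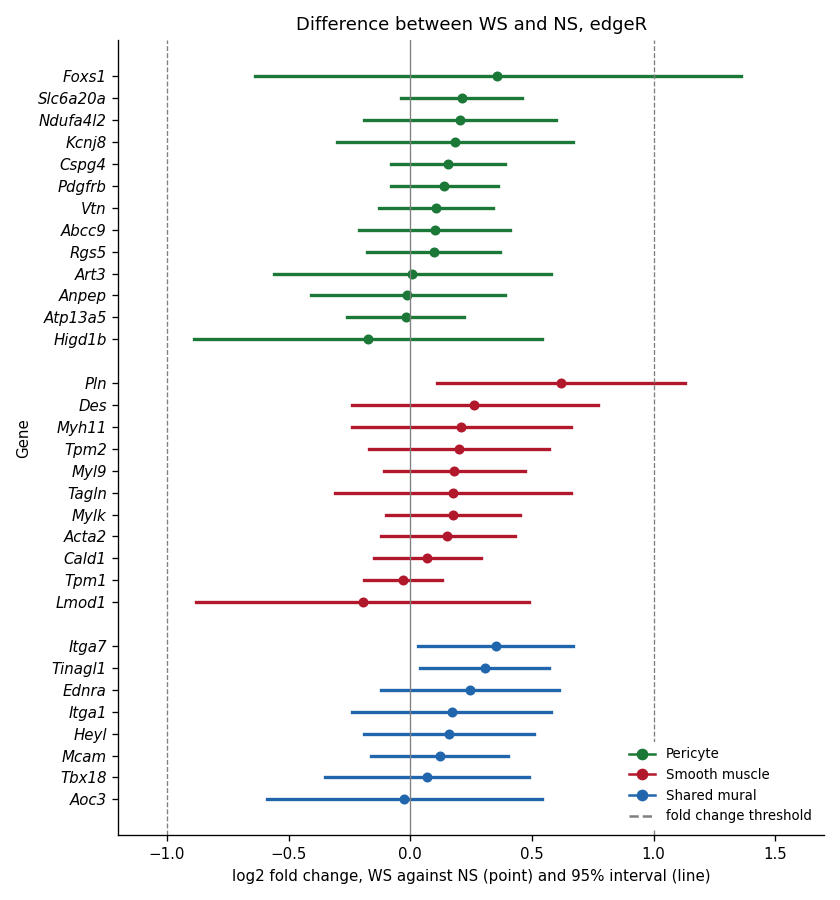
log2 fold change of WS against NS (points, horizontal axis) with 95% intervals (lines) for the 32 tested members, grouped by list, with dashed lines at the fold change threshold of 1 on the log2 scale. Points lie right of 0 for 26 members, and the intervals of Pln, Tinagl1 and Itga7 lie wholly above 0.

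Each library held 641 to 663 CPM of the 33 members in NS and 676 to 717 CPM in WS, so the summed levels of the groups did not overlap. Most of each sum came from Tpm1, Rgs5 and Vtn, and each of these genes overlapped between the groups. The pericyte sum was 308 to 312 CPM in NS and 318 to 363 CPM in WS, the smooth muscle sum 259 to 293 and 280 to 293 CPM, and the shared mural sum 60.3 to 69.5 and 69.6 to 74.7 CPM. For single genes, every WS library lay above every NS library in Ndufa4l2, Pln and Tinagl1, as it did in 3.11% of all genes, and 0 members lay wholly below against 3.16%. With 3 libraries on each side, an exact permutation test cannot give a two-sided p below 0.10.

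Receptors and channels of pericytes came closest to the question of coverage. Pdgfrb, the receptor that holds pericytes on the vessel, measured 25.3, 28.3 and 26.5 CPM in NS and 28.1, 27.4 and 32.5 CPM in WS. The groups overlapped, with the highest value in WS replicate 3, and the log2 fold change was 0.14 (SE 0.10, 95% interval -0.08 to 0.36) and 0.057 without WS replicate 3. Rgs5 measured 110, 131 and 126 CPM in NS and 108, 125 and 160 CPM in WS. Both the lowest and the highest of these values were WS libraries, and the log2 fold change of 0.10 (SE 0.13) turned to -0.071 without WS replicate 3.

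Kcnj8 and Abcc9 encode the pore and the sulfonylurea-type subunit of the potassium channel that hyperpolarizes pericytes when ATP falls. They are neighbours on the minus strand of chromosome 6 (GRCm38), Kcnj8 at chr6:142564837-142571614 and Abcc9 at chr6:142587862-142702315, with 16247 bases between them. Kcnj8 measured 3.91, 3.18 and 3.73 CPM in NS and 5.39, 3.15 and 3.73 CPM in WS, and Abcc9 measured 10.2, 10 and 8.63 CPM against 10.1, 8.97 and 11.9 CPM. Different libraries were highest for the subunits, WS replicate 1 for Kcnj8 and WS replicate 3 for Abcc9, and their deviations from the group means had a Pearson r of 0.11 over the 6 libraries. The log2 fold changes were 0.19 (SE 0.22) for Kcnj8 and 0.10 (SE 0.14) for Abcc9. They turned to -0.068 for Kcnj8 without WS replicate 1 and to -0.016 for Abcc9 without WS replicate 3.

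The matrix and surface proteins of pericytes differed little. Vtn was at 93.7, 70.8 and 77.0 CPM in NS and 94.5, 83.6 and 81.5 CPM in WS, a log2 fold change of 0.11 (SE 0.11) that was 0.020 without NS replicate 2. NS replicate 1 lay inside the WS range. Cspg4, the NG2 proteoglycan that oligodendrocyte precursors also carry, had means of 19.0 ± 1.72 and 21.2 ± 1.55 CPM (SD, n = 3 each) and a log2 fold change of 0.16 (SE 0.11), which was 0.083 without NS replicate 1. Anpep, an aminopeptidase of the pericyte surface, was at 6.81, 5.99 and 4.72 CPM in NS and 5.63, 6.74 and 4.99 CPM in WS. Its groups lay over each other, with a log2 fold change of -0.013 (SE 0.18).

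Among transporters, Slc6a20a, which carries proline and related amino acids, was at 22.4, 21.8 and 18.1 CPM in NS and 21.6, 26.5 and 24.1 CPM in WS. Only WS replicate 1 fell within the NS range, and the log2 fold change was 0.21 (SE 0.12). Leaving out NS replicate 3 gave 0.121, and leaving out WS replicate 2 gave 0.129. Of its 50-base words, 16.2% also occur in transcripts of other genes, foremost the paralog Slc6a20b, so that part of its reads could belong to another gene. Atp13a5, a P5-type ATPase used as a marker of brain pericytes, was at 11.8, 13.3 and 13.6 CPM in NS and 13.2, 12.6 and 12.5 CPM in WS, with a log2 fold change of -0.018 (SE 0.11). The WS values lay within the NS range.

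Ndufa4l2, a mitochondrial protein induced in hypoxia, was the pericyte gene whose groups separated, with 3.09, 3.43 and 3.42 CPM in NS and 4.15, 3.65 and 3.66 CPM in WS. Its log2 fold change was 0.21 (SE 0.18, 95% interval -0.19 to 0.60), and its exons overlap Shmt2 on the other strand. Higd1b, of the hypoxia-inducible domain family, was at 1.58, 1.06 and 1.86 CPM in NS and 1.42, 0.866 and 1.71 CPM in WS. It was lower in WS in 3 of 3 pairs of the same replicate number, while the groups overlapped and the log2 fold change was -0.17 (SE 0.33). Foxs1, a forkhead transcription factor of perivascular cells, was at 0.567, 0.499 and 0.932 CPM in NS and 1.36, 0.433 and 0.758 CPM in WS, and its log2 fold change of 0.36 (SE 0.46) rested on WS replicate 1, being -0.164 without it. Art3, an ADP-ribosyltransferase, averaged 2.79 ± 0.530 and 2.82 ± 0.897 CPM (SD, n = 3 each), and its log2 fold change was 0.009 (SE 0.26).

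The actin cytoskeleton of smooth muscle was followed in Acta2, Tagln, Tpm1, Tpm2, Cald1 and Cnn1. Acta2, smooth muscle alpha-actin and the usual arteriole marker, measured 16.0, 13.0 and 17.0 CPM in NS and 15.2, 17.6 and 18.3 CPM in WS. Tagln, encoding the actin-bundling protein transgelin, measured 6.49, 3.87 and 6.89 CPM in NS and 5.27, 6.74 and 7.52 CPM in WS. NS replicate 2 was lowest in both genes, and the other NS libraries lay within the WS range. The log2 fold change was 0.15 (SE 0.13) for Acta2 and 0.18 (SE 0.22) for Tagln. Without NS replicate 2 it was 0.044 for Acta2 and -0.042 for Tagln.

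Cnn1, encoding calponin, had 3, 5 and 6 counts in NS and 7, 6 and 10 counts in WS. Without the filter on low counts its log2 fold change was 0.68 (SE 0.46, adjusted p = 0.9994, edgeR with Benjamini-Hochberg adjustment). Counts this low leave it undecided. Tpm1 was at 192, 180 and 191 CPM in NS and 191, 189 and 172 CPM in WS, a log2 fold change of -0.028 (SE 0.07), the narrowest interval of the members at -0.19 to 0.13. Cald1, encoding the actin-binding protein caldesmon, was at 25.7, 23 and 26.6 CPM in NS and 24.0, 27.8 and 27.2 CPM in WS, a log2 fold change of 0.07 (SE 0.10). Tpm2 averaged 6.03 ± 0.679 and 6.93 ± 1.18 CPM (SD, n = 3 each), and its log2 fold change was 0.20 (SE 0.17), with 0.074 without WS replicate 2 and 0.324 without WS replicate 3.

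The myosin side of contraction gave similar values. Myh11, the smooth muscle myosin heavy chain, measured 6.43, 5.06 and 7.33 CPM in NS and 7.23, 5.44 and 9.09 CPM in WS. WS was the higher in each pair of the same replicate number although the groups overlapped, with a log2 fold change of 0.21 (SE 0.20) that was 0.016 without WS replicate 3. Myl9, the regulatory light chain, averaged 12.5 ± 2.07 and 14.2 ± 0.836 CPM, and Mylk, the kinase that phosphorylates that chain, 15.4 ± 2.54 and 17.4 ± 1.02 CPM (SD, n = 3 each). Their log2 fold changes were 0.18 (SE 0.13) and 0.18 (SE 0.13). They were 0.068 and 0.085 without NS replicate 2, and 0.307 and 0.315 without NS replicate 1.

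Desmin and leiomodin lay on opposite sides. Des, the intermediate filament of muscle, measured 2.02, 1.56 and 1.74 CPM in NS and 2.19, 2.23 and 1.96 CPM in WS, with NS replicate 1 above WS replicate 3 and a log2 fold change of 0.26 (SE 0.23). Lmod1, a nucleator of actin filaments, measured 2.58, 1.5 and 2.73 CPM in NS and 2.13, 1.24 and 2.59 CPM in WS. It was lower in WS in 3 of 3 pairs, yet the groups overlapped, and the log2 fold change was -0.19 (SE 0.32).

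The largest difference among the tested members was that of Pln, encoding phospholamban, the brake on the calcium pump of the sarcoplasmic reticulum. Pln measured 1.83, 1.69 and 2.05 CPM in NS and 2.25, 3.28 and 3.03 CPM in WS. The groups did not overlap, and WS was the higher in 3 of 3 pairs. The log2 fold change was 0.62 (SE 0.23, 95% interval 0.11 to 1.13), a fold of 1.53, with an unadjusted p of 0.0212 and an adjusted p of 0.9998 (edgeR, Benjamini-Hochberg adjustment). The gene lies at chr10:53337667-53345987 (GRCm38), and its exons overlap Cep85l on the other strand. Whether the counting used strand is not given, so reads from the overlap could belong to either gene. The extent of the overlap was not measured. The same limit holds for 11 other members with exons that overlap a gene on the other strand, which include Tagln (Pcsk7), Art3 (Cxcl10) and Slc6a20a (Ccr9) and, with less known partners, Abcc9, Mylk, Des, Tbx18, Ednra and Mcam.

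**Figure D3:**
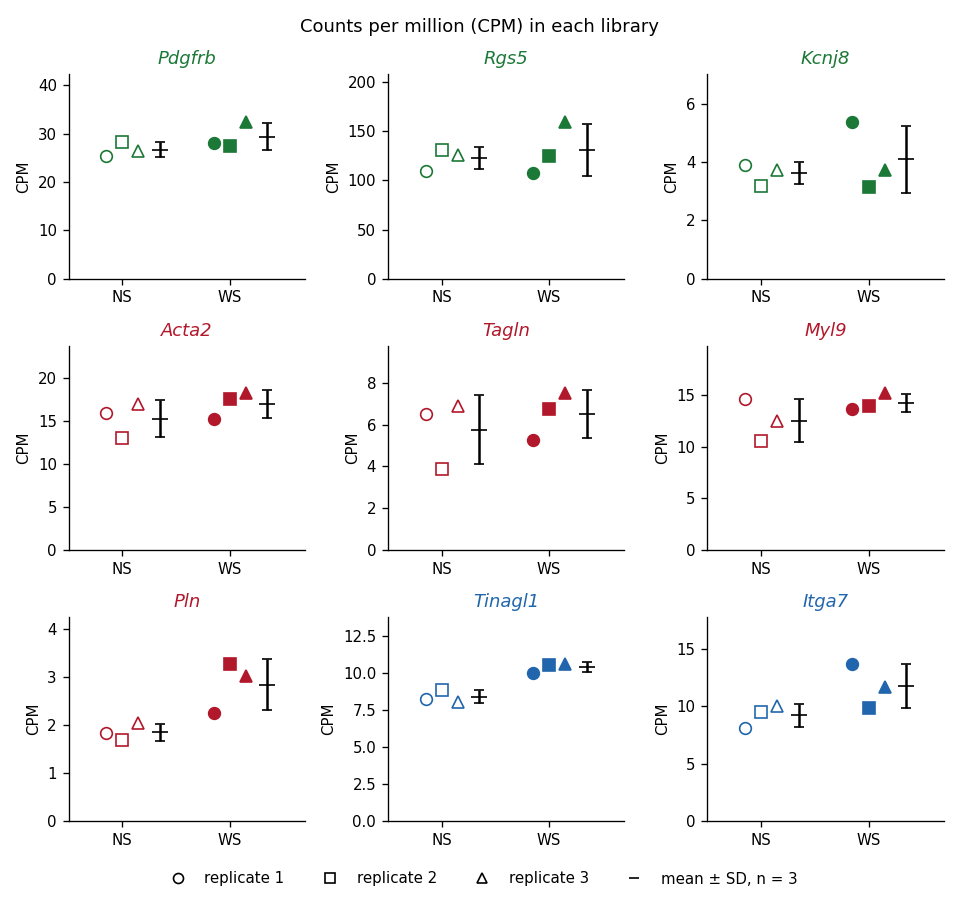
CPM (vertical axes from 0) of 9 members in each NS library (open symbols) and WS library (filled symbols), with symbol shape for the replicate number and bars for the mean ± SD (n = 3). The groups do not overlap in Pln and Tinagl1 and overlap in the remaining 7 panels.

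Genes used by both cell types included the other members at an unadjusted p under 0.05. Tinagl1, a matrix protein of basement membranes, measured 8.26, 8.86 and 8.01 CPM in NS and 10, 10.5 and 10.6 CPM in WS. These groups did not overlap, and the log2 fold change was 0.31 (SE 0.12, 95% interval 0.04 to 0.57) with an unadjusted p of 0.0258 and an adjusted p of 0.9998 (edgeR with Benjamini-Hochberg adjustment). Itga7, a laminin-binding integrin chain, measured 8.13, 9.49 and 10 CPM in NS and 13.7, 9.90 and 11.7 CPM in WS, so that WS replicate 2 fell just below NS replicate 3. The log2 fold change was 0.35 (SE 0.15, 95% interval 0.03 to 0.67) with an unadjusted p of 0.0335 and an adjusted p of 0.9998 in the same test. Without WS replicate 1 it was 0.229. Exons of Itga7 overlap Mettl7b on the other strand.

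Ednra, the endothelin receptor of smooth muscle, was at 5.67, 5.06 and 4.47 CPM in NS and 5.33, 6.74 and 5.94 CPM in WS, with only WS replicate 1 inside the NS range and a log2 fold change of 0.24 (SE 0.17), which was 0.144 without WS replicate 2 and 0.161 without NS replicate 3. Mcam, the adhesion molecule CD146 that endothelial cells also carry, was at 23.1, 31.2 and 24.9 CPM in NS and 25.4, 32.0 and 28.7 CPM in WS. Its replicates with the number 2 were the highest in both groups, and the log2 fold change was 0.12 (SE 0.13). Tbx18, a transcription factor that marks the mural lineage, was at 3.09, 3.00 and 2.98 CPM in NS and 2.90, 3.53 and 3.09 CPM in WS, a log2 fold change of 0.07 (SE 0.19).

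Aoc3, a vascular amine oxidase, was at 1.45, 1.25 and 1.49 CPM in NS and 1.18, 1.48 and 1.45 CPM in WS, a log2 fold change of -0.025 (SE 0.26). Of its 50-base words, 4.03% also occur in transcripts of other genes, foremost Aoc2. Heyl, a Notch target of mural cells, averaged 5.69 ± 0.629 and 6.35 ± 0.654 CPM (SD, n = 3 each), with a log2 fold change of 0.16 (SE 0.16) that came to 0.070 when NS replicate 3 was left out and to 0.077 when WS replicate 1 was. Itga1, a collagen-binding integrin chain, averaged 4.38 ± 0.303 and 4.93 ± 1.02 CPM, with a log2 fold change of 0.17 (SE 0.19). Of the words of Itga1, 5.50% also occur in other genes, foremost Gm49395, which overlaps it on the same strand.

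Individual libraries moved the lists in different ways. NS replicate 2 was the lowest of the 6 libraries for 8 of 11 smooth muscle genes (72.7%) and for 13.3% of all genes tested. The mean deviation of the smooth muscle genes from their 6-library mean on the log2 scale was 0.053, -0.321 and 0.017 in NS and 0.035, 0.055 and 0.161 in WS. The median log2 fold change of that list was 0.068 without NS replicate 2, 0.098 without WS replicate 3 and 0.272 without NS replicate 1. For the shared mural list it was 0.097 without NS replicate 3. WS replicate 3 was highest for 5 of 13 pericyte genes (38.5%, namely Pdgfrb, Rgs5, Abcc9, Cspg4 and Art3) and for 24.0% of all genes. WS replicate 1 was highest for 4 of 13 (30.8%) and for 26.4% of all genes, a share close to the background.

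The pericyte median was 0.072 log2 units below the smooth muscle median, a difference of -0.072. Per library, the mean deviation of pericyte genes minus that of smooth muscle genes was -0.075, 0.204 and -0.014 in NS (0.038 ± 0.146, SD, n = 3) and 0.084, -0.176 and -0.024 in WS (-0.038 ± 0.131). Both groups spanned 0. The difference between the medians was 0.063 without NS replicate 2, so no order of the cell types can be read from it.

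**Figure D4:**
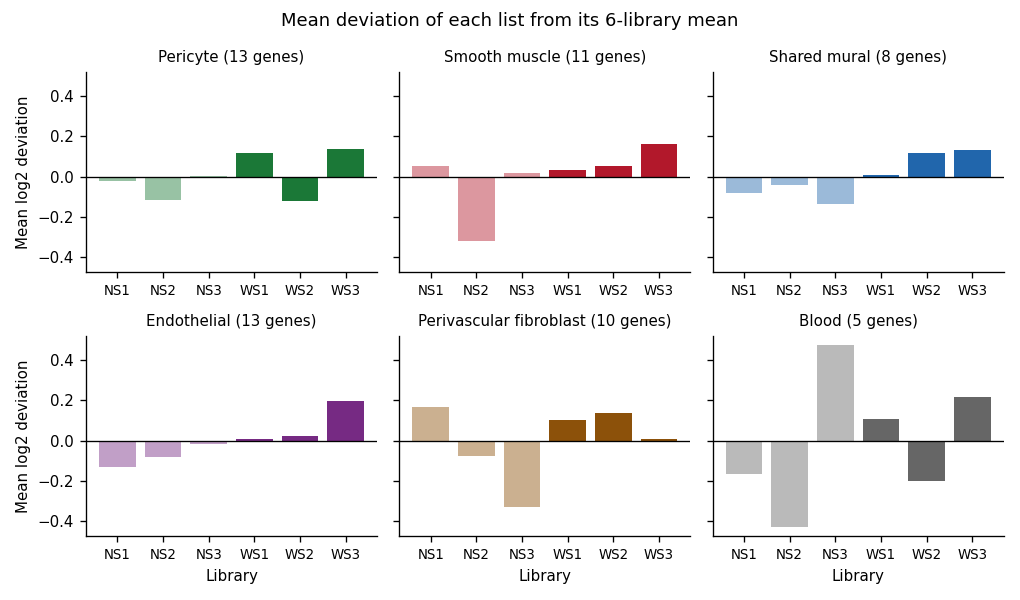
Mean log2 deviation (vertical axis) of the tested genes of 6 lists from their own 6-library mean, by library (horizontal axis), with pale bars for NS and full bars for WS. NS replicate 2 stands at -0.321 for smooth muscle genes, NS replicate 3 at -0.331 for perivascular fibroblast genes, and WS replicate 3 at 0.161 for smooth muscle and 0.137 for pericyte genes.

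Members were also compared by how they varied among libraries once the group means were removed, for the 25 with at least 50 counts on average. The median Pearson r over pairs of smooth muscle genes was 0.33, with 24 of 28 pairs above 0. It was -0.04 over pericyte pairs (22 of 45 above 0), -0.10 between pericyte and smooth muscle genes and 0.24 over pairs of shared genes. Acta2 varied with Tagln (r = 0.99) and with Cald1 (r = 0.96), and Rgs5 with Pdgfrb (r = 0.87). These are descriptions over 6 libraries, and all genes of a library share its depth and scaling. As high a value joined Vtn to Mylk across the lists (r = 0.99), so that values this high were not particular to genes of 1 cell type. Values far below 0 occurred too, such as that of Pdgfrb with Tpm1 (r = -0.97). The median over pairs of all genes was not computed.

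Beside the values of Acta2, Tagln and Cald1, promoters were read for the CArG box, the site of serum response factor in contractile genes, which is CC, 6 bases of A or T, and GG. RefSeq windows of 300 bases (250 before the start and 50 after it, GRCm38.p6) were at hand for 24 of 33 members, as 28 windows. The box was found on either strand in 1.63% of 32851 windows and, among members, in Myl9. With 1 G or C allowed among the 6 bases it was in 9.98% of windows and in those of Acta2, Myl9 and Tbx18. The Myl9 stretch is shown as the only member with the full box, and 30 bases around each Acta2 box because Acta2 is the usual marker of arterioles. Myl9 is chr2:156775264-156775419 on the plus strand, which ends before the first exon. The Acta2 boxes, at 84 and 34 bases before the RefSeq start, are in chr19:34255438-34255467 and chr19:34255388-34255417 on the minus strand, inside a first exon of GENCODE M21. Capitals mark the full box in Myl9, whose second box, with 1 G among the 6 bases, is left in lower case, and the boxes with 1 G or C allowed in Acta2. All are written 5′ to 3′.
Myl9: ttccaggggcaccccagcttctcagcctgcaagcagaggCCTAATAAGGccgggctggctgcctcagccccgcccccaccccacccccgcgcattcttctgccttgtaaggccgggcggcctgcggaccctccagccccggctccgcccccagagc
Acta2, farther from the start: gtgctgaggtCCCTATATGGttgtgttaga
Acta2, nearer the start: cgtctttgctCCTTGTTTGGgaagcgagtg

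A pair of shorter motifs was read in the same windows on both strands. TGGGAA, the core read by the Notch partner RBPJ, was in 25.6% of all windows and in 9 of 28 member windows, and in Acta2 it overlaps the box nearest the start. ACGTG, the core of hypoxia response elements, was in 19.6% of all windows and in 5 of 28 member windows. The stretch before the start of Pln is shown because Pln differed most, at chr10:53337536-53337666 on the plus strand, with ACGTG in capitals at 42 bases before the start. A match of letters is a description and not a binding site.
Pln: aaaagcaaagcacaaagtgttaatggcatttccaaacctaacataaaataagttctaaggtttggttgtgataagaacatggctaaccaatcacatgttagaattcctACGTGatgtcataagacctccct

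Signalling genes of mural cells were read as a list of 22 genes. It holds ligands and receptors, the cadherin Cdh2 and the transcriptional regulators Myocd, Srf, Mkl1 and Mkl2. Of the list, 21 genes were tested and 0 passed the threshold with edgeR or DESeq2. At an unadjusted p under 0.05, 1 was higher with either, where 0.866% of all genes were so with edgeR and 0.495% with DESeq2. The log2 fold change was above 0 in 18 of 21 and in 53.0% of all genes, with a median of 0.090 against 0.007. Pdgfb, the endothelial ligand of Pdgfrb, was at 54.3, 49.8 and 52.9 CPM in NS and 60.7, 52.1 and 44.3 CPM in WS, and its WS libraries held both the highest and the lowest value (log2 fold change 0.001, SE 0.11). Notch3, the Notch receptor of mural cells, was at 14.2, 15.5 and 14.9 CPM in NS and 16.9, 13.8 and 17.6 CPM in WS (log2 fold change 0.11, SE 0.12).

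The highest log2 fold changes of that list were those of Angpt2, the angiopoietin that loosens pericytes from the endothelium, and Eng, a co-receptor for TGF-beta on endothelial cells. Angpt2 was at 1.58, 1.62 and 1.43 CPM in NS and 1.6, 2.16 and 2.02 CPM in WS (log2 fold change 0.32, SE 0.25). Eng was at 31.9, 34.8 and 39.8 CPM in NS and 44.6, 40.8 and 43.1 CPM in WS, with no overlap (log2 fold change 0.27, SE 0.10, unadjusted p = 0.0221, adjusted p = 0.9998 with edgeR and Benjamini-Hochberg adjustment). The lowest log2 fold changes were those of Edn1, encoding the constrictor endothelin-1, and Angpt1, which mural cells release onto the endothelial receptor Tek. Edn1 was at 3.59, 4.12 and 4.84 CPM in NS and 3.73, 3.77 and 3.47 CPM in WS (log2 fold change -0.19, SE 0.18). Angpt1 was at 8.57, 5.68 and 3.98 CPM in NS and 6.81, 5.94 and 4.36 CPM in WS (log2 fold change -0.088, SE 0.26). The groups of both overlapped.

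Markers of the other cells of this tissue were read beside the members. Of 13 endothelial genes 13 were above 0 (median 0.088, summed 324 to 367 CPM in NS and 362 to 422 in WS). Among them Pecam1, encoding the endothelial adhesion molecule CD31 and named here after its values were seen, was at 17.2, 16.3 and 19.2 CPM in NS and 22.2, 33 and 41.5 CPM in WS. Its groups did not overlap, and its log2 fold change was 0.87 (SE 0.19), with an adjusted p of 0.8129 (edgeR, Benjamini-Hochberg adjustment). When same-numbered libraries were fitted as pairs, the same test gave an adjusted p of 0.0009475. That pairing was taken from correlations in these same data, and the labels do not say what the numbers share. The differences of Pecam1 in the pairs were 0.36, 1.02 and 1.11 log2 units. Pecam1 was the extreme of its list, and the log2 fold changes of the other endothelial genes ranged from 0.002 (Tie1) to 0.25 (Kdr). Above 0 were also 9 of 10 perivascular fibroblast genes (median 0.117, 253 to 293 and 271 to 322 CPM). Every WS library lay above every NS library in the collagen genes Col3a1 (log2 fold change 0.48, SE 0.18) and Col1a2 (0.29, SE 0.12) of that list and in Olig1, a transcription factor of the oligodendrocyte lineage (0.22, SE 0.09). These 3 genes, also named after their values were seen, had an unadjusted p under 0.05 and an adjusted p of 0.9998 (edgeR, Benjamini-Hochberg adjustment). Of all genes tested, 3.11% had every WS library above every NS library, and 0.866% were higher at an unadjusted p under 0.05. Values were above 0 for 7 of 8 oligodendrocyte precursor genes (median 0.105, 544 to 653 and 611 to 687 CPM), which bears on Cspg4, and for 9 of 9 astrocyte genes (median 0.130, 4460 to 4990 and 4700 to 5810 CPM). Neuronal genes were above 0 in 3 of 8 (median -0.024, 7680 to 7970 and 7450 to 7910 CPM). Every WS library lay below every NS library in 1 of them, Syt1 (log2 fold change -0.077, SE 0.08), as in 3.16% of all genes. Syt1 was at 1850, 1840 and 1850 CPM in NS and 1680, 1790 and 1790 CPM in WS. Fibroblast genes were lowest in NS replicate 3 in 8 of 10 and the 5 blood genes highest there in 5 of 5 (422 to 766 CPM in NS and 501 to 634 in WS). No marker was at 0 in any library, and the part of these cells in the members' values was not tested.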

How the data were processed

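Reads of rRNA or of low quality were discarded by the authors before alignment with HISAT2, and the submitters' processing notes name the build mm10. The counting tool is not given in the sources used here. The table deposited by the authors holds, per gene, the estimated count averaged over 6 libraries, its SD, and a z-score per library (distance from that mean in SDs), not the counts or FPKM values the design had assumed. The deposited score had been computed by the authors for each gene from its counts in the 6 libraries. Counts were computed back as mean + z-score × SD and rounded; 91.0% of values in 13418 genes came within 0.1 of a whole number, where chance gives 20.0%. The z-score columns were checked against the authors' group means. The column headed 3NWS was taken as WS replicate 3, which those means bear out. The authors' own comparison columns (fold change, p, FDR and rank) and a second table with only such columns were not used.

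edgeR 4.0.16 (TMM, filterByExpr, quasi-likelihood F test, R 4.3.3) was fitted to 13747 genes, with Benjamini-Hochberg adjustment. The threshold was a log2 fold change beyond 1 at an adjusted p under 0.05, and the scripts were tested on simulated data. Alternatives were RLE and upper quartile scaling, no filter, a mean count of at least 10, DESeq2 1.42.0, the replicate number as a block, other thresholds and leaving out each library. Same-numbered libraries deviated together (Pearson r of 0.34, 0.23 and 0.12 over genes, each library best with its own number), so the numbers were taken as pairs. The labels give the numbers, not what they share. Deviations from a mean of 3 libraries depend on each other, so these correlations cannot show what a pair shares either. Depth was 15660395 to 17276168 counts per library. Annotation was GENCODE M21 (GRCm38).

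The members and lists were chosen with earlier results of these data known. All 33 members were named. Values in every library were given for Pdgfrb, Rgs5, Kcnj8, Abcc9, Vtn, Acta2, Tagln, Myh11, Cnn1 and Des, and for members with at least 10 counts among the 3 highest or 3 lowest log2 fold changes of their list or with separate groups.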

Additional observations from a re-analysis of the deposited data

How the results depend on the processing

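The count of members past the threshold was 0 under every alternative, except that 3 passed an unadjusted p under 0.05 alone (0 with DESeq2). Under both scalings, both filters, DESeq2 and the block, 191 of 192 member log2 fold changes kept their direction, with shifts of at most 0.025, and the lowest adjusted p of any alternative was 0.8842 (edgeR, without WS replicate 3). Blocking on the replicate number, the medians were 0.111 for pericyte, 0.189 for smooth muscle and 0.159 for shared mural genes, 3 members were again higher at an unadjusted p under 0.05, no member's call changed, and Art3 turned to -0.002. Leaving out each library in turn, the pericyte median ranged from 0.082 to 0.131, the smooth muscle median from 0.068 to 0.272, the shared mural median from 0.097 to 0.226 and the pericyte minus smooth muscle difference from -0.160 to 0.063. In these fits 25 to 29 of 32 members were higher in WS, and 13 members changed sign at least once: the values spanned -0.071 to 0.218 for Rgs5, -0.068 to 0.333 for Kcnj8, -0.016 to 0.183 for Abcc9, -0.145 to 0.112 for Anpep, -0.384 to 0.049 for Higd1b, -0.078 to 0.022 for Atp13a5, -0.279 to 0.149 for Art3, -0.164 to 0.676 for Foxs1, -0.042 to 0.328 for Tagln, -0.058 to 0.018 for Tpm1, -0.425 to 0.045 for Lmod1, -0.020 to 0.132 for Tbx18 and -0.099 to 0.073 for Aoc3. The cause was not tested. The other 19 members had the same sign in every fit, but some came near 0, such as Pdgfrb (0.057), Myh11 (0.016) and Itga1 (0.005) without WS replicate 3, Acta2 (0.044), Vtn (0.020) and Cald1 (0.010) without NS replicate 2, and Mcam (0.027) without WS replicate 2. Depth limits Cnn1 and Foxs1, which have the fewest counts.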
